A study of Mus musculus with 10 samples.

Results

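The genes of sterol and fatty acid synthesis were examined in CD8 T cells sorted from mouse tumours. The 30 genes were chosen by symbol for their place in these pathways, out of 54337 genes with a GENCODE M21 entry. They comprised 7 genes of the mevalonate and isoprenoid steps, 11 of the sterol steps from squalene onwards, 4 for the SREBP factors, INSIG1 and a sterol carrier, and 8 of fatty acid synthesis and desaturation. All 30 were measured and all 30 passed the low-count filter.

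The T cells carried a transgenic receptor for P1A, an antigen of the P511 mastocytoma, and the strain label was C57BL/6. After 24 h of activation they received a retroviral vector, and 24 h later they were transferred into Rag1-/- B10D2 mice bearing P511, a tumour of mast cell origin in hosts that lack T and B cells of their own. The vector encoded NFAT5 (libraries 1, 5 and 8), CA-RIT NFAT1 (libraries 2, 4, 9 and 10), a constitutively active NFAT1 that cannot pair with AP-1, or eGFP alone (libraries 3, 6 and 7). The cells were sorted from the tumours 7 days after transfer. Expression of each transgene came from the retrovirus and not from its own promoter. Whether each library was from its own mouse is not stated, so p-values rest on the spread between libraries alone, which may be technical.

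Cells make cholesterol from acetyl-CoA through mevalonate, isoprenoids, squalene and lanosterol, and make fatty acids from acetyl-CoA through malonyl-CoA. Both routes are driven by the SREBPs, transcription factors that are made as precursors in the membrane of the endoplasmic reticulum. When membrane sterol is plentiful, INSIG proteins hold the precursors there together with their escort SCAP. When sterol is scarce the precursors move to the Golgi and are cut, and the freed part enters the nucleus and binds sterol regulatory elements. T cells are known to raise this programme when they are activated and begin to divide.

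Of the 10 libraries, 9 held 18.8 to 36.6 M estimated reads and eGFP 7 held 0.0511 M, with reads on 3 members only, so it entered no comparison. Nfat5 had 87.0, 81.6 and 48.0 CPM in the NFAT5 libraries, 10.7, 4.70 and 3.01 CPM in CA-RIT NFAT1 2, 4 and 9, and 1.12 and 6.88 CPM in eGFP 3 and 6. Nfatc2, which encodes NFAT1, had 88.8, 63.5 and 30.0 CPM in CA-RIT NFAT1 2, 4 and 9, 70.0, 42.3 and 36.6 CPM in the NFAT5 libraries, and 4.00 and 47.3 CPM in eGFP 3 and 6, so its levels did not separate the vectors. The library labelled CA-RIT NFAT1 10 had 3.39 CPM for Nfatc2, which does not tell its vector. It went against its description as sorted CD8 T cells. Its 8 CD8 T cell markers summed to 217 CPM, against 21445 to 34243 CPM in the 8 libraries compared, and Cd8a and Lck had 1 read each. Its 8 mast cell and P511 markers summed to 4047 CPM, against 40.7 to 244 CPM, although Ms4a2, Fcer1a, Hdc and Tpsb2 were at 0. All comparisons between vectors therefore rest on 3 NFAT5, 3 CA-RIT NFAT1 and 2 eGFP libraries, and CA-RIT NFAT1 10 is described apart.

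One of the eGFP libraries, eGFP 3, stood apart from the other 7 in these genes. It was the lowest of the 8 for 17 of the 30 members, against 37.1% of the 14473 genes tested, and the highest for 4, Lss, Msmo1, Ebp and Sc5d, against 22.3% of all genes. It had 0 reads on Nsdhl, Hsd17b7, Elovl6 and Fads2, which allows up to 0.0821 CPM by counting error. Of 8129 genes with at least 5 CPM in each of the other 7 libraries, 260 (3.20%) had 0 reads in eGFP 3. It had the most reads of the 8 libraries, 36.6 M, and reads on the fewest genes, 13186 against 15276 to 17255 in the other 7, and the part of this in the members' values was not tested. Fold changes against eGFP are therefore also given without eGFP 3, where eGFP 6 stands alone and is assumed to vary like the other groups.

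Levels are given in CPM, the estimated reads of a gene scaled to the total over matched genes, and between genes in TPM, which also divides by transcript length. Over the 7 libraries other than eGFP 3, the highest mean level was that of Ebp, the sterol isomerase that acts late in the pathway, at 134 TPM and above 94.4% of the genes detected. It was followed by Acly, which makes acetyl-CoA from citrate, at 78.3 TPM, Srebf1 at 60.0 TPM, Fdps at 59.7 TPM, Srebf2 at 46.5 TPM and Scd2 at 33.5 TPM. A further 4 genes, Sc5d, Pmvk, Acat2 and Dhcr7, lay between 30.8 and 32.7 TPM. Insig1, Elovl6, Acaca, Scd1 and Fads2 were the lowest, at 2.53, 1.90, 1.66, 1.18 and 0.562 TPM. Every gene overlapped its neighbour in this order over the 7 libraries, so single ranks cannot be told apart, while Ebp was first in each of the 7. The sterol steps from squalene took 39.6% ± 2.58 of the summed TPM of the members, the mevalonate steps 24.4% ± 4.46, fatty acid synthesis 19.3% ± 4.64 and the SREBP group 16.8% ± 2.08 (SD, n = 7 libraries).

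**Figure D1:**
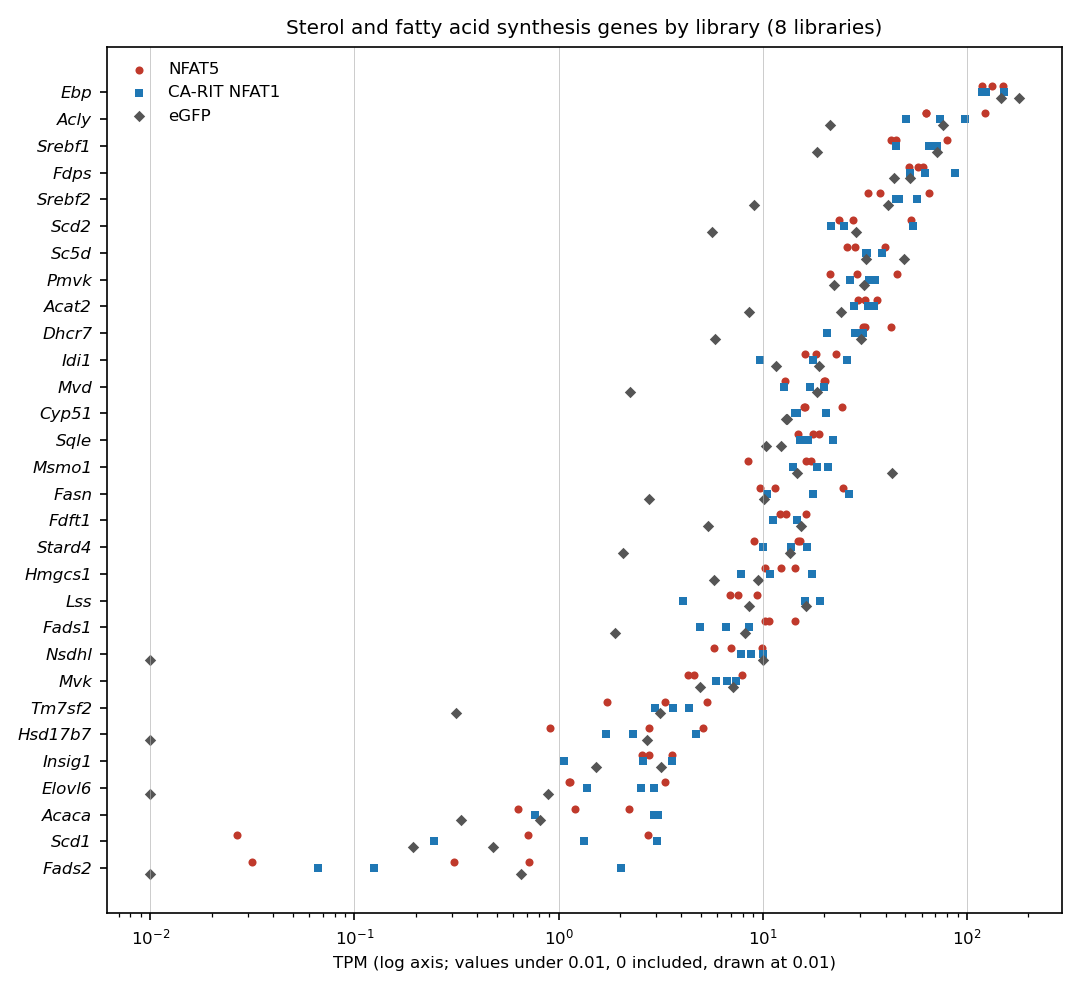
TPM of the 30 genes on a log axis in the 3 NFAT5, 3 CA-RIT NFAT1 and 2 eGFP libraries compared, 1 point per library, ordered by the mean of the 7 libraries other than eGFP 3. Ebp is at the top at a mean of 134 TPM and Fads2 at the bottom at 0.562 TPM, and for most genes from Acly to Fads1 the lower of the eGFP points, set off to the left, is eGFP 3.

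Comparing NFAT5 with eGFP asks whether the transcripts of lipid synthesis differed when NFAT5 was overexpressed. By edgeR's quasi-likelihood test with Benjamini-Hochberg adjustment, 0 of the 30 members passed an adjusted p of 0.05, as did 0 of all 14473 genes (0%). Nfat5 itself was thus not called, so the 0 members do not show that these genes were unchanged. The common coefficient of variation between libraries in this fit, which all 3 comparisons share, was 0.725. DESeq2 and limma voom also called 0 members, while DESeq2 called 97 genes higher and 34 lower out of the 21694 it tested. At an unadjusted p under 0.05, 0 members were higher and 1 was lower, Msmo1, against 3.25% and 4.01% of all genes. The fitted log2 fold change was above 0 for 22 of 30 members, against 53.9% of all genes, and its median was 0.42, against 0.08 over all genes. The NFAT5 libraries lay wholly above both eGFP libraries for 5 members, Acat2, Hmgcs1, Sqle, Elovl6 and Fads1, against 14.2% of all genes, and wholly below for 0, against 8.15%. By group the medians were 0.04 for the 7 mevalonate genes (4 above 0), 0.37 for the 11 sterol genes (7 above 0), 0.28 for the SREBP group (4 of 4) and 0.94 for the 8 fatty acid genes (7 above 0). Without eGFP 3 the median of the members was 0.17, against 0.05 over all genes. Then 18 of 30 members were above 0, against 8484 of 15766 genes. In that fit the fatty acid genes ran from -0.58 to 0.70 and the SREBP group from -0.49 to 1.00.

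CA-RIT NFAT1 against eGFP gave the same kind of result. Of the 30 members 0 were called by edgeR, DESeq2 or limma voom, and edgeR called 0 of 14473 genes (0%). DESeq2 called 83 genes higher and 17 lower out of the 21694 it tested. At an unadjusted p under 0.05, 0 members were higher and Ebp was lower, against 3.28% and 3.16% of all genes. Of the 30 members 23 had a log2 fold change above 0, against 54.6% of all genes, with a median of 0.39, against 0.10. The CA-RIT NFAT1 libraries lay wholly above eGFP for 5 members, Acat2, Sqle, Srebf2, Tm7sf2 and Elovl6, against 14.2% of all genes, and wholly below for Ebp, against 6.7%. In the same order of groups the medians were 0.18, 0.37, 0.21 and 0.81, with 5 of 7, 7 of 11, 3 of 4 and 8 of 8 above 0. Without eGFP 3 the median was 0.19, against 0.05 over all genes. Then 20 of 30 members were above 0, against 8545 of 15766 genes. In that fit the fatty acid genes lay on both sides of 0, with Fads1 at -0.45 and Fasn at 0.54 among them. Both comparisons share the eGFP libraries, so a likeness between them is not independent.

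With the eGFP group reduced to eGFP 3 alone, 12 members were called higher and 4 lower in NFAT5, against 15.4% and 5.14% of 16011 genes, and 10 higher and 3 lower in CA-RIT NFAT1, against 15.9% and 5.37%. The medians of the members were then 1.02 and 1.07, beside 0.45 and 0.49 over all genes. Relative to the 6 vector libraries, eGFP 6 lay within their range for 23 of 30 members, against 77.1% of all genes, above it for Srebf1 alone, against 10.8%, and below it for 6, Acat2, Fdps, Sqle, Lss, Cyp51 and Elovl6, against 12.1%. Which of the eGFP libraries represents the group cannot be told from these data.

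CA-RIT NFAT1 against NFAT5 compares the vectors without eGFP. In this comparison too 0 members were called by edgeR, DESeq2 or limma voom, as were 0 of 14473 genes by edgeR (0%), and at an unadjusted p under 0.05 0 members were higher or lower, against 0.788% and 0.339% of all genes. The log2 fold change was above 0 for 14 of 30 members, against 50.5%, with a median of -0.02, against 0.00. By group the medians were -0.09, 0.01, -0.07 and 0.46, and the fatty acid genes ran from -0.87 for Fads1 to 0.76. The members' median absolute log2 fold change was 0.15, against 0.24 over all genes. These sets were not matched for level, and their median standard errors were 0.460 and 0.548, so this does not show that the members were steadier. No member was wholly higher in CA-RIT NFAT1 (4.06% of all genes) and 1, Fads1, was wholly lower (2.77%). In bulk RNA, fewer cells of a type and less RNA per cell cannot be told apart in any of these values.

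**Figure D2:**
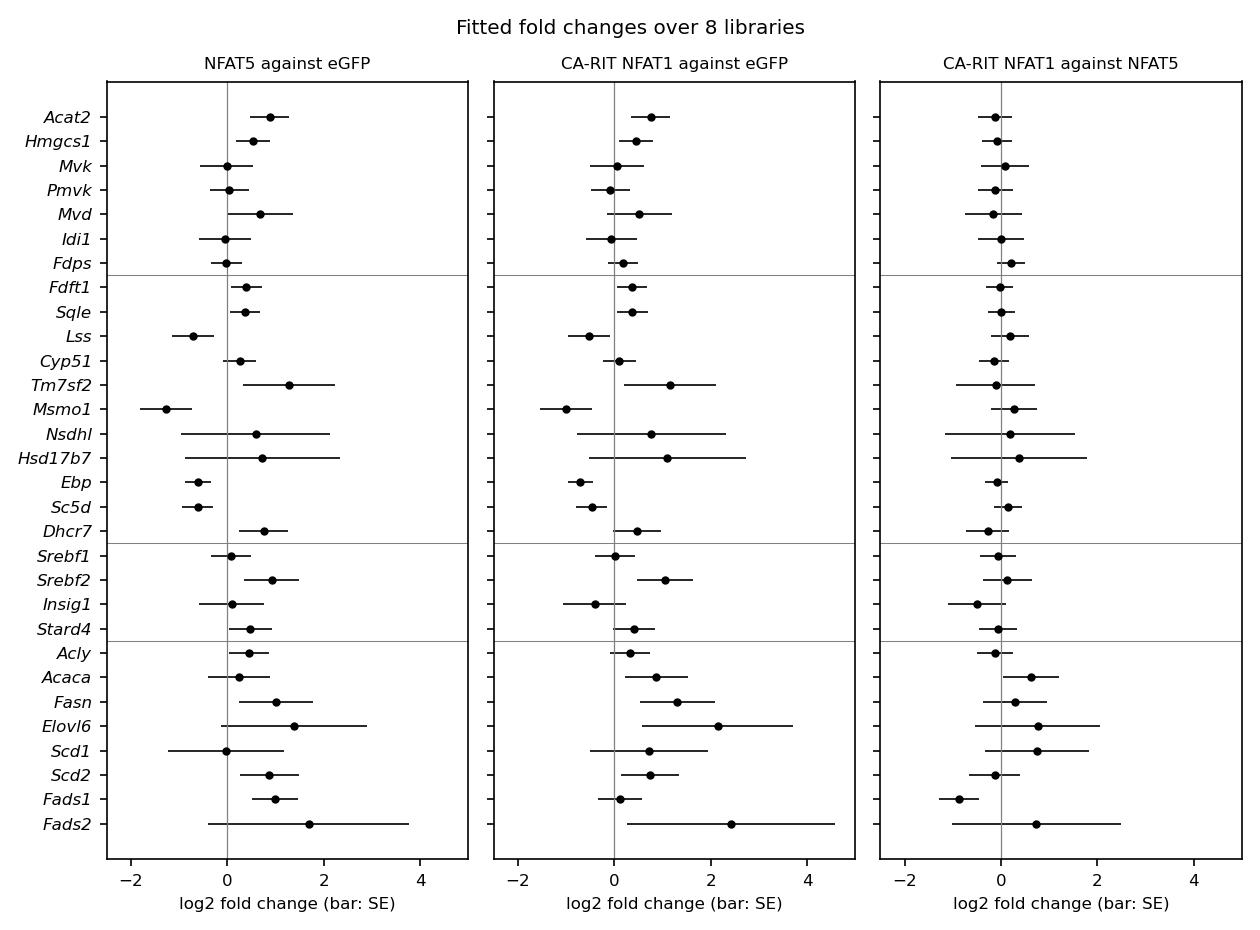
Fitted log2 fold changes of the 30 genes over 8 libraries, with their standard errors as bars, in NFAT5 (left) and CA-RIT NFAT1 (middle), each against eGFP, and in CA-RIT NFAT1 against NFAT5 (right); lines part the 4 groups of genes. In the right-hand panel most points lie close to 0, with a median of -0.02, and Fads1 is farthest below 0 at -0.87.

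The mevalonate steps begin with Acat2, the cytosolic thiolase that joins acetyl-CoA units, and Hmgcs1, which makes HMG-CoA. Both are known SREBP targets in liver and cultured cells. Of the members with an entry in RefSeq's table of GRCm38.p6 start sites, these and Insig1 held the core letters of a sterol regulatory element, CACNCCAC, within 250 bases before the start, on either strand. That is 3 of 28 windows of 23 members, against 5.29% of all 32851 windows, and the letters overlap those of the E-box CACGTG in 27 of all windows. Their windows are shown because they hold the letters that SREBPs are known to bind. The E-box stood in the windows of Hsd17b7, Sc5d, Dhcr7 and Insig1, against 6.02% of all windows, and both motifs are in capitals below. The windows are chr17:12960726-12960975 on the minus strand, chr13:119690101-119690350 on the plus strand and chr5:28071162-28071411 on the plus strand, 5′ to 3′ along the gene.
Acat2: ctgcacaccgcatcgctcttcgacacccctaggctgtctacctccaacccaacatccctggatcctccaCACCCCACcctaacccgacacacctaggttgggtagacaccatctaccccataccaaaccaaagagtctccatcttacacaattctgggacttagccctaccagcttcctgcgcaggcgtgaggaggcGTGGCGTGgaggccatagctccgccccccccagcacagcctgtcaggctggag
Hmgcs1: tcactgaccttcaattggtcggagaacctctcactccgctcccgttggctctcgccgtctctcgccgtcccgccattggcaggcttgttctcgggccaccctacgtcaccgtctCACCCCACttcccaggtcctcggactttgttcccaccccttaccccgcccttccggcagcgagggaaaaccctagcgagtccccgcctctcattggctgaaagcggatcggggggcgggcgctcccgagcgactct
Insig1: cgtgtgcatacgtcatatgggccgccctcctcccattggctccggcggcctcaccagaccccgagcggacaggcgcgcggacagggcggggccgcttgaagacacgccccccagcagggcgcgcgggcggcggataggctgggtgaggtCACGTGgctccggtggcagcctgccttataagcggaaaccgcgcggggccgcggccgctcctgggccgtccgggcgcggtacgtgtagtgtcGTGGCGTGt

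The Acat2 window holds the sterol element core at 181 bases before the start and, on the other strand, at 53 bases before it. In Hmgcs1 it lies 136 bases before the start, and in Insig1 it lies 9 bases before, with the E-box at 101 bases before. A CCAAT box stood in 19 of the 28 windows, against 33.8% of all windows, and the Sp1 box GGGCGG in 21, against 32.7%. The letters TGGAAA, the core of NFAT sites, stood in 5, Idi1, Cyp51, Ebp, Srebf1 and Acaca, against 18.6%. A match is a description of letters and not a bound site, and no binding was measured here.

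Acat2 had 51.4, 74.0 and 66.3 CPM in the NFAT5 libraries, 52.5, 59.1 and 66.9 CPM in the CA-RIT NFAT1 libraries, and 17.3 and 48.8 CPM in eGFP 3 and eGFP 6. All 6 vector libraries lay above both eGFP libraries, and eGFP 3 was far below eGFP 6. The log2 fold change was 0.88 ± 0.41 in NFAT5 against eGFP (adjusted p = 0.654) and 0.76 ± 0.41 in CA-RIT NFAT1 against eGFP (adjusted p = 0.679), and without eGFP 3 it was 0.37 and 0.25. Acat3, a near copy of Acat2 beside it in the mouse genome, had 0.645 to 2.71 CPM in these libraries.

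Hmgcs1 had 41.0, 36.0 and 40.3 CPM with NFAT5, 31.1, 52.7 and 27.4 CPM with CA-RIT NFAT1 and 21.8 and 28.6 CPM in eGFP 3 and 6. The NFAT5 libraries were close to each other and above both eGFP libraries, while the CA-RIT NFAT1 libraries spread across both other groups. Its log2 fold change was 0.53 ± 0.36 in NFAT5 and 0.45 ± 0.36 in CA-RIT NFAT1, each against eGFP, and -0.09 ± 0.31 in CA-RIT NFAT1 against NFAT5 (adjusted p = 0.677, 0.717 and 1.00). Without eGFP 3 the first 2 were 0.43 and 0.34. An antisense gene overlaps 12.1% of the exon bases of Hmgcs1, and the counting is not stated to use strand. In all, 10 of the 30 members share exon bases with another annotated gene, 7 of them with one on the opposite strand.

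Mvk and Pmvk, the kinases that phosphorylate mevalonate in turn, had 4.68 to 10.0 and 18.7 to 45.0 CPM over the 8 libraries. For both, the lowest of the 8 libraries was NFAT5 1, and the vectors overlapped. Mvd, the decarboxylase that forms isopentenyl diphosphate, had 29.4, 32.9 and 21.6 CPM in the NFAT5 libraries, 19.4, 25.3 and 31.1 CPM in the CA-RIT NFAT1 libraries, and 4.19 and 29.3 CPM in eGFP 3 and 6. Only eGFP 3 was outside the range of the others. Idi1, which interconverts the isoprenoid building blocks, ranged from 22.5 to 75.3 CPM, with both ends in the CA-RIT NFAT1 group. Fdps, which makes farnesyl diphosphate, had 54.1, 65.7 and 71.8 CPM with NFAT5, 57.5, 68.0 and 97.6 CPM with CA-RIT NFAT1 and 69.0 and 50.7 CPM in eGFP 3 and 6, and its groups overlapped (log2 fold change 0.20 ± 0.28 in CA-RIT NFAT1 against NFAT5, adjusted p = 1.00). A predicted protein-coding gene on the same strand covers 26.7% of the exon bases of Fdps.

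**Figure D3:**
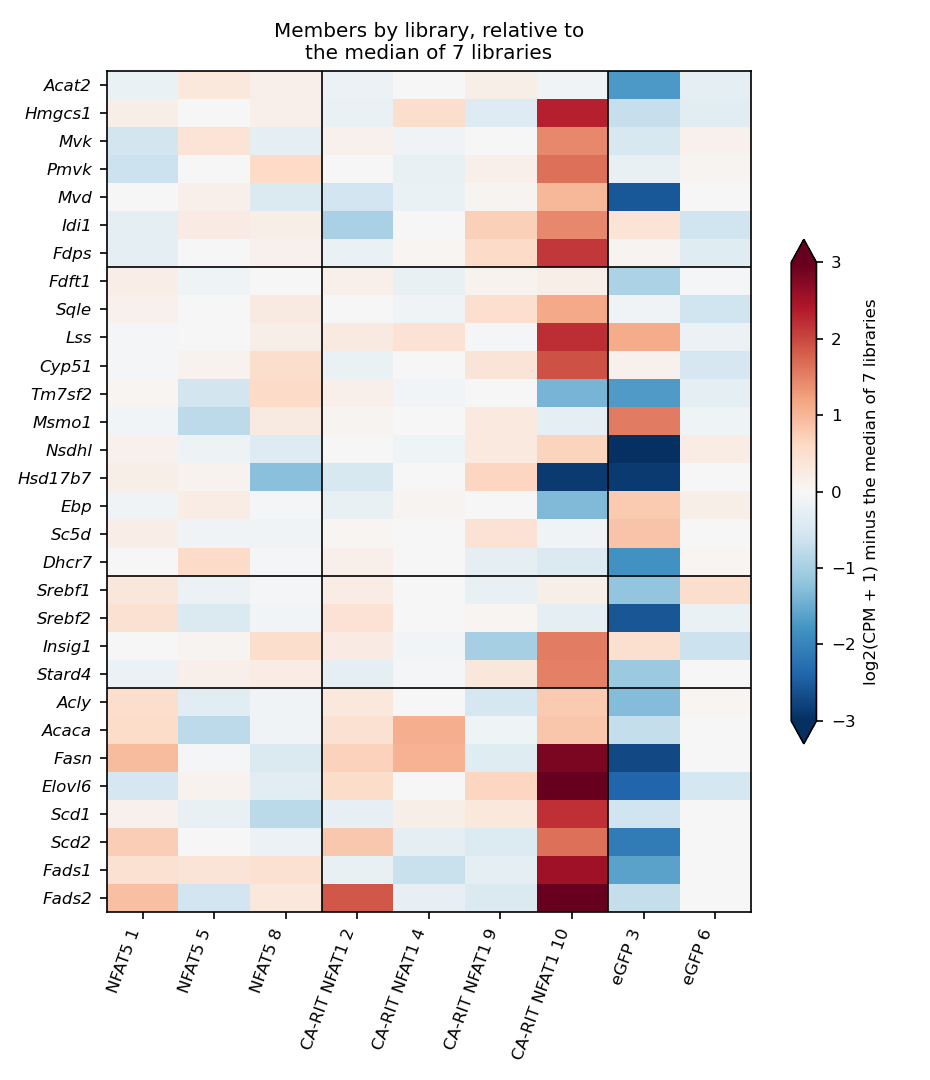
log2(CPM + 1) of each gene minus its median over the 7 libraries NFAT5 1, 5 and 8, CA-RIT NFAT1 2, 4 and 9 and eGFP 6, in colour from blue (lower) to red (higher), with the libraries in columns. The column of eGFP 3 is blue for most genes and red for Lss, Msmo1, Ebp and Sc5d, and that of CA-RIT NFAT1 10 is red for most.

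Among the sterol steps from squalene, 4 genes ran the other way from most members in the comparisons with eGFP. Msmo1, which removes methyl groups from the sterol ring, had 23.3, 14.0 and 30.0 CPM in the NFAT5 libraries, 26.2, 24.9 and 30.9 CPM in the CA-RIT NFAT1 libraries, and 75.3 and 22.8 CPM in eGFP 3 and 6. The 6 vector libraries and eGFP 6 lay together, and eGFP 3 was the one high library. The log2 fold change was -1.27 ± 0.53 in NFAT5 against eGFP (unadjusted p = 0.0431, adjusted p = 0.654) and -1.002 ± 0.53 in CA-RIT NFAT1 against eGFP (adjusted p = 0.679). Without eGFP 3 these were -0.05 and 0.22.

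Ebp, the isomerase, had 131, 163 and 135 CPM with NFAT5, 119.8, 147 and 140.1 CPM with CA-RIT NFAT1 and 244 and 158 CPM in eGFP 3 and 6. All 3 CA-RIT NFAT1 libraries lay below both eGFP libraries, and 1 NFAT5 library lay above eGFP 6. Its log2 fold change was -0.70 ± 0.27 in CA-RIT NFAT1 against eGFP (unadjusted p = 0.0304, adjusted p = 0.679) and -0.61 ± 0.27 in NFAT5 against eGFP (adjusted p = 0.654), and -0.25 and -0.17 without eGFP 3. Sc5d, a desaturase of the sterol ring, had 45.8 to 66.7 CPM in the other 7 libraries and 90.0 CPM in eGFP 3 (log2 fold change -0.62 ± 0.32 in NFAT5 and -0.47 ± 0.32 in CA-RIT NFAT1 against eGFP, adjusted p = 0.654 and 0.691), and without eGFP 3 these were -0.02 and 0.13. Lss, the cyclase that forms lanosterol, had 19.3 to 29.8 CPM in the other 7 and 48.2 CPM in eGFP 3 (log2 fold change -0.70 ± 0.43 in NFAT5 against eGFP, adjusted p = 0.664; without eGFP 3 it was 0.21). For Lss in CA-RIT NFAT1 against eGFP it was -0.53 ± 0.44 (adjusted p = 0.726), and 0.39 without eGFP 3.

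Fdft1, squalene synthase, and Sqle, squalene epoxidase, begin the branch to sterols. Fdft1 had 47.1, 37.2 and 40.8 CPM in the NFAT5 libraries, 45.6, 34.6 and 44.2 CPM in the CA-RIT NFAT1 libraries and 20.6 and 39.0 CPM in eGFP 3 and 6, and only eGFP 3 lay outside the others. Exons of Ctsb, on the opposite strand, overlap 18.3% of its exon bases. Sqle had 47.1, 43.1 and 52.0 CPM with NFAT5, 43.0, 40.0 and 61.6 CPM with CA-RIT NFAT1 and 39.7 and 27.9 CPM in eGFP 3 and 6. Here the highest eGFP library was eGFP 3, it lay just under the lowest vector library, and eGFP 6 was the lowest of the 8. For Sqle the log2 fold change was 0.37 ± 0.32 and 0.38 ± 0.32 in NFAT5 and CA-RIT NFAT1 against eGFP, and 0.01 ± 0.28 in CA-RIT NFAT1 against NFAT5 (adjusted p = 0.724, 0.727 and 1.00). Its difference from eGFP was larger without eGFP 3, at 0.74 and 0.75, and neither was called.

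Cyp51, the lanosterol demethylase, ran from 34.7 CPM in eGFP 6 to 72.6 CPM in NFAT5 8, with eGFP 3 within the vector libraries. Tm7sf2, a sterol reductase, had 1.97 to 5.42 CPM in the other 7 libraries and 0.329 CPM in eGFP 3. Nsdhl, a sterol dehydrogenase, had 14.7 to 24.2 CPM in the other 7 and 0 reads in eGFP 3, and Hsd17b7, which reduces the keto group after it, had 2.10 to 10.6 CPM and 0 reads. Dhcr7, the reductase that makes cholesterol from its last precursor, had 46.6, 70.2 and 45.6 CPM with NFAT5, 52.2, 45.9 and 37.8 CPM with CA-RIT NFAT1 and 12.6 and 48.7 CPM in eGFP 3 and 6 (log2 fold change -0.28 ± 0.44 in CA-RIT NFAT1 against NFAT5, adjusted p = 1.00). For Cyp51, eGFP 6 lay below all 6 vector libraries. For the other 4 genes eGFP 6 lay within them, and the one low library was eGFP 3.

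Srebf1 and Srebf2 encode the SREBPs themselves. Srebf1 had 149, 103 and 114 CPM in the NFAT5 libraries, 137, 117 and 99.7 CPM in the CA-RIT NFAT1 libraries, and 51.1 and 168 CPM in eGFP 3 and 6. The eGFP libraries were the lowest and the highest of the 8. Its log2 fold change was 0.07 ± 0.42 in NFAT5 and 0.01 ± 0.41 in CA-RIT NFAT1, each against eGFP, and -0.06 ± 0.37 in CA-RIT NFAT1 against NFAT5 (adjusted p = 0.967, 0.997 and 1.00), and the first 2 turned to -0.49 and -0.56 without eGFP 3.

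Srebf2, the factor most tied to sterol genes, had 193, 103 and 131 CPM with NFAT5, 188, 139 and 146 CPM with CA-RIT NFAT1 and 22.8 and 121 CPM in eGFP 3 and 6. The CA-RIT NFAT1 libraries lay above both eGFP libraries, and NFAT5 5 lay below eGFP 6. The log2 fold change was 0.92 ± 0.57 in NFAT5 against eGFP (adjusted p = 0.666), 1.05 ± 0.58 in CA-RIT NFAT1 against eGFP (adjusted p = 0.679) and 0.13 ± 0.50 in CA-RIT NFAT1 against NFAT5 (adjusted p = 1.00). Without eGFP 3 the first 2 were 0.21 and 0.34. In eGFP 3, 75.1% of the Srebf2 reads were assigned to an annotated retained-intron transcript, against 8.18% to 19.2% in the other 7 libraries, and 0 reads to the main coding transcript.

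Insig1, whose promoter window is shown above, retains the SREBP precursors and is itself a target of SREBPs. It was low throughout, with 6.69, 7.14 and 10.1 CPM in the NFAT5 libraries, 8.08, 6.32 and 2.87 CPM in the CA-RIT NFAT1 libraries, and 9.75 and 3.93 CPM in eGFP 3 and 6. The groups overlapped (log2 fold change 0.09 ± 0.67 in NFAT5 and -0.41 ± 0.66 in CA-RIT NFAT1, each against eGFP, and -0.50 ± 0.60 in CA-RIT NFAT1 against NFAT5; adjusted p = 0.975, 0.860 and 1.00). Without eGFP 3 the comparisons with eGFP gave 1.00 and 0.50. Stard4, a soluble carrier that moves sterol between membranes, had 17.4 to 27.2 CPM in the other 7 libraries and 9.23 CPM in eGFP 3.

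The Srebf1 gene has alternative first exons, which in mouse are known to give SREBP-1a from the upstream start and SREBP-1c from the downstream one. RefSeq's table holds 3 starts for Srebf1, and the 250 bases before the 2 that lie at the coding transcripts described here are shown, because the reads could be split between them. They are chr11:60220628-60220877 and chr11:60210472-60210721 of GRCm38.p6, both on the minus strand, and neither motif printed in capitals for the genes above occurs in either.
Srebf1 upstream start: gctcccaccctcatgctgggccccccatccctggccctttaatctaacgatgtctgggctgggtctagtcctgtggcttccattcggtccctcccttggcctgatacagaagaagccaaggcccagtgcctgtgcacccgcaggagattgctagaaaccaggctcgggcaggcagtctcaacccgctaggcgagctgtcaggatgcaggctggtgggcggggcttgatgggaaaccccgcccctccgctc
Srebf1 downstream start: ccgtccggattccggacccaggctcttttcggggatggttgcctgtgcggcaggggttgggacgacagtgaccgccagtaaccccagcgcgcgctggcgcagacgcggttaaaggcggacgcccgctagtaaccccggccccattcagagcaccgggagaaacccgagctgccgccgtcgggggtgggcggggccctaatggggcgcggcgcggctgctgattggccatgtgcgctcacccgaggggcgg

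The remaining RefSeq window, chr11:60222582-60222831, lies farther upstream, before a non-coding transcript, and it is the one that holds the NFAT core letters counted for Srebf1.

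The main upstream transcript begins at position 60220604 of chromosome 11 and the main downstream one at 60210465, in the GENCODE annotation. The upstream class also counts the non-coding transcript that begins farther upstream, and the main upstream transcript alone took 55.02% to 74.0% of the reads in the 8 libraries. Upstream transcripts together took 64.5%, 75.2% and 74.8% of the Srebf1 reads in the NFAT5 libraries, 74.4%, 55.8% and 64.2% in the CA-RIT NFAT1 libraries, and 71.3% and 71.7% in eGFP 3 and 6. Downstream transcripts took 20.1%, 17.0% and 9.06% with NFAT5, 13.4%, 22.0% and 24.9% with CA-RIT NFAT1 and 5.83% and 16.8% in eGFP 3 and 6. The upstream start was the larger in all 8 libraries and the vectors overlapped in both shares. The 95% Wilson interval of each share spans under 5 percentage points and covers counting error only, while the assignment of reads to transcripts that share exons adds error of its own.

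**Figure D4:**
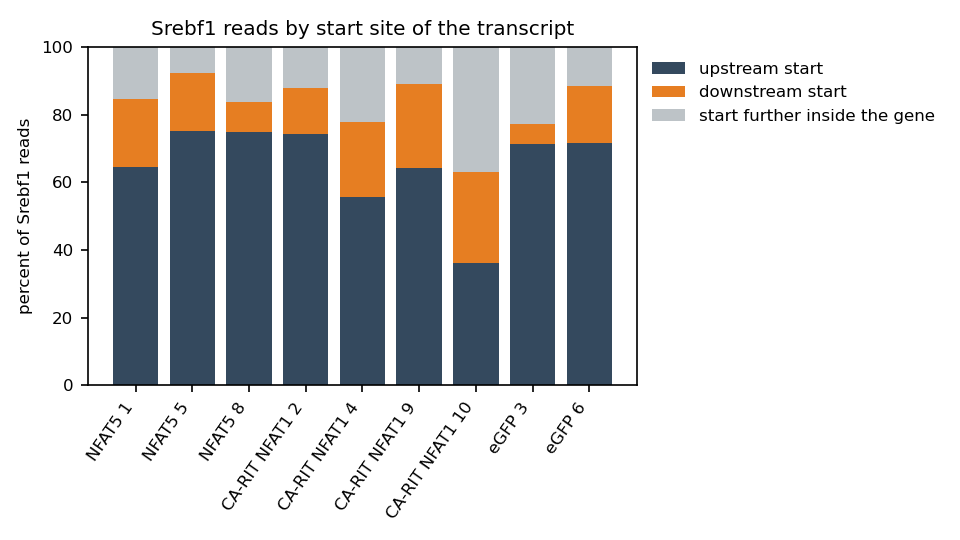
Percent of the Srebf1 reads in each library assigned to transcripts that begin at the upstream start, the downstream start or further inside the gene. The upstream start took 55.8% to 75.2% in the 8 libraries compared and 36.0% in CA-RIT NFAT1 10.

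Fatty acid synthesis starts from Acly, which had 394, 219 and 252 CPM in the NFAT5 libraries, 341, 273 and 189 CPM in the CA-RIT NFAT1 libraries, and 109.7 and 287 CPM in eGFP 3 and 6. Only eGFP 3 lay outside the range of the others. Acaca, the carboxylase that makes malonyl-CoA, was low, at 11.9, 4.05 and 7.17 CPM with NFAT5, 11.0, 17.6 and 7.06 CPM with CA-RIT NFAT1 and 4.33 and 7.77 CPM in eGFP 3 and 6 (log2 fold change 0.62 ± 0.57 in CA-RIT NFAT1 against NFAT5, adjusted p = 1.00). Fasn, which builds palmitate, had 155, 76.7 and 59.5 CPM with NFAT5, 129.5, 166 and 62.3 CPM with CA-RIT NFAT1 and 11.4 and 80.0 CPM in eGFP 3 and 6. The spread within each vector was over 2-fold, and eGFP 6 lay inside it. For Fasn the log2 fold change was 1.02 ± 0.76 in NFAT5 against eGFP, 1.31 ± 0.77 in CA-RIT NFAT1 against eGFP and 0.29 ± 0.66 in CA-RIT NFAT1 against NFAT5 (adjusted p = 0.695, 0.679 and 1.00), and the first 2 were 0.24 and 0.54 without eGFP 3.

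Scd1 and Scd2 are stearoyl-CoA desaturases, which put the first double bond into a saturated fatty acid. Scd2 had 256, 152 and 135 CPM in the NFAT5 libraries, 266, 123 and 114 CPM in the CA-RIT NFAT1 libraries, and 35.0 and 152 CPM in eGFP 3 and 6. NFAT5 1 and CA-RIT NFAT1 2 were about level at the top, and the vectors and eGFP 6 overlapped. Its log2 fold change was 0.87 ± 0.60 in NFAT5 and 0.74 ± 0.60 in CA-RIT NFAT1, each against eGFP, and -0.13 ± 0.53 in CA-RIT NFAT1 against NFAT5 (adjusted p = 0.679, 0.723 and 1.00), and 0.21 and 0.08 against eGFP without eGFP 3. Scd1, the main form in liver, had 3 to 41 reads a library in the 8, or 0.131 to 1.45 CPM. Its log2 fold change in CA-RIT NFAT1 against NFAT5 was 0.74 ± 1.08 (adjusted p = 1.00). It made up 0.0972% to 1.26% of the reads on Scd1 and Scd2 together, so nearly all reads on this pair were on Scd2. The related copies Scd3 and Scd4 had at most 5 and 16 reads in these libraries.

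Elovl6, which lengthens palmitate, had 2.66, 4.64 and 3.10 CPM with NFAT5, 6.63, 4.22 and 7.13 CPM with CA-RIT NFAT1 and 0 and 2.59 CPM in eGFP 3 and 6. The lowest vector library, NFAT5 1, exceeded eGFP 6 by a margin smaller than the spread within either vector. Fads2, the desaturase that begins the synthesis of long polyunsaturated fatty acids, had 0.107 to 4.98 CPM in the other 7 libraries and 0 reads in eGFP 3.

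Fads1, the desaturase that acts after Fads2, was the one member whose libraries separated NFAT5 from CA-RIT NFAT1. It lies on the plus strand of chromosome 19 (GRCm38) at 10182888 to 10196877. It had 22.1, 16.0 and 21.2 CPM in the CA-RIT NFAT1 libraries, 36.3, 34.4 and 36.5 CPM in the NFAT5 libraries, and 7.91 and 26.1 CPM in eGFP 3 and 6. Each NFAT5 library was above each CA-RIT NFAT1 library, and eGFP 6 lay between them. The log2 fold change was -0.87 ± 0.42 in CA-RIT NFAT1 against NFAT5 (unadjusted p = 0.0675, adjusted p = 1.00) and 1.00 ± 0.48 in NFAT5 against eGFP (adjusted p = 0.654), so neither passed. Without eGFP 3 the estimate for NFAT5 against eGFP was 0.43, and that for CA-RIT NFAT1 against NFAT5 was -0.88 (unadjusted p = 0.0047, adjusted p = 1.00), and with all 10 libraries it turned to 0.44. In eGFP 3, 77.4% of the Fads1 reads were assigned to a coding transcript of 3301 bases, against 0% to 11.6% in the other 7 libraries, where one of 3460 bases took 84.2% or more.

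Spread between replicates was compared through the coefficient of variation of the CPM, over members with a mean of at least 5 CPM. Its median was 20.1% over 26 members in the NFAT5 libraries and 22.1% over 27 members in the CA-RIT NFAT1 libraries, against 20.9% and 21.2% over all genes at that level. In the eGFP pair it was 60.2% over 25 members, against 36.6% over all genes. Summed over the 30 members, the level was 830, 688 and 666 TPM in the NFAT5 libraries, 763, 744 and 703 TPM in the CA-RIT NFAT1 libraries, and 505 and 687 TPM in eGFP 3 and 6. The 25 cell cycle genes, read here because lipid synthesis is known to rise in dividing cells, summed to 7776 to 10173 CPM with NFAT5, 6094 to 9549 CPM with CA-RIT NFAT1, and 4371 and 6641 CPM in eGFP 3 and 6. Of the 25, 25 had a log2 fold change above 0 in NFAT5 against eGFP (median 0.64) and 24 in CA-RIT NFAT1 against eGFP (median 0.67), against 8 in CA-RIT NFAT1 against NFAT5 (median -0.06), and 0 were called. Under an unadjusted edgeR p of 0.05, 6 were higher in NFAT5 and 8 in CA-RIT NFAT1, each against eGFP, and 0 were lower. Of all genes 3.25% and 3.28% were higher at that p. The 8 CD8 T cell markers ran the other way, at 21445 to 22800 CPM with NFAT5, 23672 to 25999 CPM with CA-RIT NFAT1, and 34243 and 28917 CPM in eGFP 3 and 6, with 0 and 1 of the 8 above 0 in NFAT5 and CA-RIT NFAT1 against eGFP. In the same comparisons 4 and 5 of the 8 were lower under an unadjusted p of 0.05 and 0 were higher. Of all genes 4.01% and 3.16% were lower. The counts and medians of both lists include eGFP 3, and those without it are not given. The 8 mast cell and P511 markers summed to 118 to 244 CPM with NFAT5, 65.8 to 184 CPM with CA-RIT NFAT1, and 40.7 and 241 CPM in eGFP 3 and 6. The macrophage and monocyte markers summed to 64.7 to 169 CPM, 81.9 to 199.99 CPM, and 112 to 199 CPM in the same order of groups, and the 6 dendritic cell markers to 63.9 to 127 CPM, 40.6 to 178 CPM, and 35.9 to 94.3 CPM. The cell cycle sum was lowest in eGFP 3, as most members were, and the part of these genes and markers in the members' values was not tested.

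Genes around the pathways did not pass the test either, and this was so for all 4 neighbouring lists in all 3 comparisons, where edgeR called 0 genes. Of 12 further genes of SREBP processing and sterol metabolism, 5 had a log2 fold change above 0 in NFAT5 against eGFP, 5 in CA-RIT NFAT1 against eGFP and 6 in CA-RIT NFAT1 against NFAT5, with medians of -0.24, -0.15 and 0.03. Rnf139, a ubiquitin ligase of the endoplasmic reticulum that binds the SREBP machinery, had 39.0, 37.1 and 41.8 CPM with NFAT5, 41.2, 44.7 and 32.1 CPM with CA-RIT NFAT1 and 16.7 and 26.3 CPM in eGFP 3 and 6. All 6 vector libraries lay above both eGFP libraries (log2 fold change 0.78 ± 0.31 and 0.76 ± 0.31, adjusted p = 0.654 and 0.679, in NFAT5 and CA-RIT NFAT1 against eGFP), and without eGFP 3 these were 0.55 and 0.54. Dhdds and Ggps1 lengthen isoprenoid chains. Dhdds had a log2 fold change of -0.52 ± 0.24 in NFAT5 against eGFP (adjusted p = 0.654), or -0.42 without eGFP 3. Ggps1 had -0.79 ± 0.34 in CA-RIT NFAT1 against eGFP (adjusted p = 0.679), or -0.31 without eGFP 3. In CA-RIT NFAT1 against NFAT5 the smallest p in the list were those of Dhdds, at 0.28 ± 0.22, and Insig2, at 0.46 ± 0.38 (adjusted p = 1.00 for both). Of 19 tested genes among 20 for other steps of fatty acid synthesis, 8, 9 and 8 were above 0 in the same order of comparisons, with medians of -0.08, -0.11 and -0.08. Hacd2, a dehydratase of fatty acid elongation, had 31.0, 29.9 and 33.3 CPM with NFAT5, 39.4, 26.6 and 44.1 CPM with CA-RIT NFAT1 and 95.8 and 45.8 CPM in eGFP 3 and 6, and all vector libraries lay below eGFP 6 (log2 fold change -1.30 ± 0.38 and -1.10 ± 0.38, adjusted p = 0.654 and 0.679; -0.57 and -0.37 without eGFP 3). For Hsd17b12, a reductase of the same cycle, these were -0.88 ± 0.36 and -0.83 ± 0.36 with the same adjusted p, and -0.23 and -0.18 without eGFP 3. Between the vectors, Hacd3 and Me1 came first by p, at 0.27 ± 0.23 and -1.64 ± 2.09 (adjusted p = 1.00 for both).

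Of 13 genes of sterol efflux, esterification and the LXR receptors, 7, 9 and 8 were above 0, with medians of 0.22, 0.09 and 0.10. Npc2, which carries cholesterol out of lysosomes, had 189, 166 and 163 CPM in the NFAT5 libraries, 222, 161 and 132 CPM in the CA-RIT NFAT1 libraries and 250.3 and 234 CPM in eGFP 3 and 6. All vector libraries lay below both eGFP libraries (log2 fold change -0.60 ± 0.24 and -0.63 ± 0.24, adjusted p = 0.654 and 0.679; -0.46 and -0.49 without eGFP 3). Abca1, the sterol exporter driven by LXR, had 0.484, 1.23 and 0 CPM with NFAT5, 2.02, 1.42 and 0 CPM with CA-RIT NFAT1, and 0 reads in both eGFP libraries. Soat2 and Lpcat3 came first by p in CA-RIT NFAT1 against NFAT5, at -0.62 ± 0.80 and -0.26 ± 0.34 (adjusted p = 1.00 for both). Of 17 fatty acid oxidation genes, 9, 10 and 11 were above 0, with medians of 0.07, 0.15 and 0.03. Acadm and Etfb, which act in the oxidation of medium-chain fatty acids and the transfer of their electrons, had log2 fold changes of -0.92 ± 0.42 and -0.55 ± 0.27 in NFAT5 against eGFP (adjusted p = 0.654 for both) and of -0.74 ± 0.42 and -0.50 ± 0.27 in CA-RIT NFAT1 against eGFP (adjusted p = 0.679 for both). Without eGFP 3 Acadm had -0.05 in NFAT5 and 0.13 in CA-RIT NFAT1, and Etfb -0.21 and -0.17. Eci2 and Acadl had the smallest p of that list in CA-RIT NFAT1 against NFAT5, at 0.41 ± 0.27 and 0.25 ± 0.19. With eGFP 3 in the fit, the medians of these 4 lists against eGFP ran from -0.24 to 0.22, beside 0.42 and 0.39 for the synthesis genes. Without eGFP 3 those of the synthesis genes were 0.17 and 0.19, and those of the 4 lists are not given. The difference between lists was not tested.

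The library labelled CA-RIT NFAT1 10 had higher levels of most of these transcripts than the 8 libraries compared. It lay above all 8 libraries for 19 of 30 members, against 30.4% of all genes, below all for Ebp and Sc5d, against 25.7%, and within their range for 9. At least 2-fold above the median of the 8 libraries were 17 members, against 23.7% of all genes, and at most 0.5-fold of it were 3, Ebp, Tm7sf2 and Hsd17b7, against 37.2%. The median ratio of the members was 2.40, against 0.852 over all genes. Fasn reached 569 CPM, or 7.26 times the median of the 8 libraries, Scd2 482 CPM, Acly 472 CPM, Fdps 290 CPM (4.34 times), Cyp51 191 CPM, Hmgcs1 187 CPM (5.56 times) and Fads1 156 CPM (6.49 times).

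Some genes that were low in the other libraries, Fads2, Elovl6 and Scd1, were among the highest ratios in CA-RIT NFAT1 10. Other low genes had smaller ratios, with Insig1, Acaca and Tm7sf2 at 3.07, 1.95 and 0.202 times the median of the 8 libraries. Fads2 had 36.9 CPM there (95% Poisson interval 34.9 to 39.1), against a median of 0.514 CPM and a highest value of 4.98 CPM in the 8 libraries. Elovl6 had 45.6 CPM, against a highest value of 7.13 CPM, and Scd1 had 7.94 CPM, against 1.45 CPM. Srebf1, Srebf2 and Acat2 lay within the range of the 8, at 132, 114 and 54.5 CPM, and Hsd17b7 had 0 reads. Ebp, the highest member by TPM in the other libraries, had 55.7 CPM, against 119.8 to 244 CPM. Of the Srebf1 reads, 36.0% were on upstream transcripts, 27.1% on downstream ones and 36.8% on those that begin further inside the gene. The last share was 7.81% to 22.9% in the 8 libraries compared.

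Some markers of other cells were also high in this library, and others were not. The 9 macrophage and monocyte markers summed to 4068 CPM in CA-RIT NFAT1 10, against 64.7 to 199.99 CPM in the 8 libraries, with all 9 detected and Chil3 at 2997 CPM. Of the 8 mast cell and P511 markers 4 were detected, with Cpa3 at 1859 CPM and Cma1 at 1352 CPM, and all 6 dendritic cell markers were at 0. The 25 cell cycle genes summed to 7658 CPM. The part of these cells in the lipid gene levels was not tested, and this is 1 library with no replicate of its kind. The vector, the cells and the library cannot be told apart in it.

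**Figure D5:**
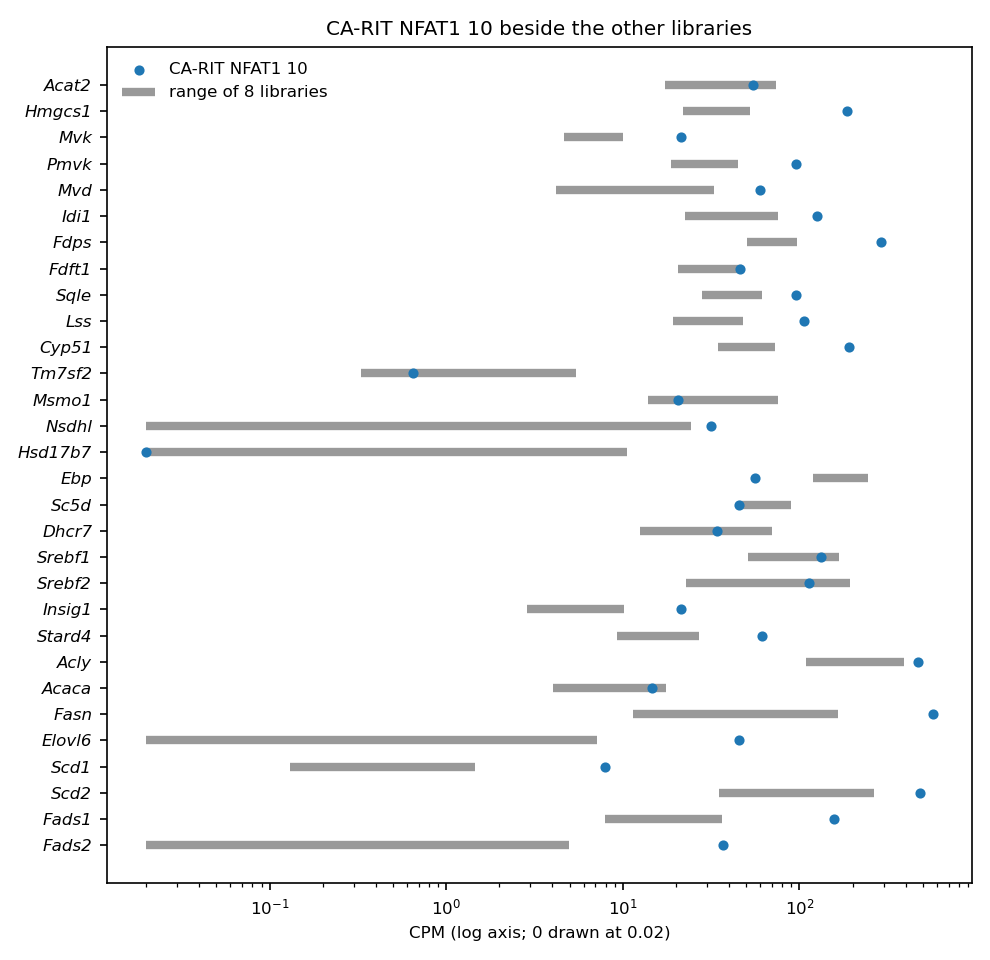
CPM of the 30 genes in CA-RIT NFAT1 10 (points) beside the range of the 8 libraries compared (grey bars), on a log axis with 0 drawn at 0.02. Fasn, Elovl6, Scd1, Fads1 and Fads2 lie far to the right of their bars, Ebp lies to the left, and 9 points lie within.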

How the data were processed

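RNA was sequenced from CD8 T cells of P511 tumours in 10 libraries, 3 with NFAT5, 4 with CA-RIT NFAT1 and 3 with eGFP alone. The authors quantified transcripts with Salmon 0.14.1 on mm10 (GRCm38.p6), per the submitters' processing notes. The deposited files hold, per the file headers, estimated counts, TPM and an effective length for each transcript. The strand setting is not given in the sources used here.

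Of 140919 transcripts, 139966 matched GENCODE M21 and were summed to 54337 genes. The 953 left out held at most 0.292% of a library's reads. CPM is over reads on matched genes, and log2 levels use a pseudocount of 1 CPM. Counts were rounded and tested with edgeR 4.0.16 (R 4.3.3) by its quasi-likelihood test with TMM scaling and filterByExpr, in 1 fit of 8 libraries and 3 groups, with Benjamini-Hochberg adjustment over all 14473 genes and a threshold of 0.05. Errors after ± are standard errors derived from each fold change and its F statistic, unless marked SD. The eGFP 7 and CA-RIT NFAT1 10 libraries were left out of the fit for the reasons given with their values. At these depths 3 reads, the limit that a count of 0 allows, are 0.0821 to 0.160 CPM, and intervals and limits cover counting error only.

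Alternatives were DESeq2 1.42.0, limma 3.58.1 (voom with quality weights), other scalings, filters and library sets, and an offset from the deposited effective length. The fit was tested on simulated data. Figures and sums used Python 3.11.15, pandas 2.3.3 and matplotlib 3.10.9. Promoter windows came from RefSeq's table for GRCm38.p6, which held 23 of the 30 members.

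The members and lists were chosen with earlier results of these data known. Levels are given for every member. Fold changes are given for members past the threshold, for the 6 smallest p in each comparison, and for Srebf1, Srebf2, Insig1, Hmgcs1, Sqle, Scd2 and Fasn in all. From the other lists, the 2 smallest p per list and comparison are named.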

Additional observations from a re-analysis of the deposited data

Results flagged for a closer look

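Within the 4 libraries labelled CA-RIT NFAT1, replicate 10 lay apart from the other 3, by Dixon's test, as the highest value of 9 genes. These were Hmgcs1 at 187 CPM, Mvk at 21.5 CPM, Pmvk at 95.6 CPM, Lss at 105.9 CPM, Cyp51 at 191 CPM, Elovl6 at 45.6 CPM, Scd1 at 7.94 CPM, Fads1 at 156 CPM and Fads2 at 36.9 CPM. In the same test Fdft1 was set apart as low in CA-RIT NFAT1 4, at 34.6 CPM. Chance sets apart about 1 in 20 such groups, but CA-RIT NFAT1 10 was set apart as the highest for 12.7% of the 14473 genes tested, and that is the share to read the 9 of 30 against. CA-RIT NFAT1 4 was set apart as the lowest for 0.104% of all genes. CA-RIT NFAT1 10 entered no comparison between vectors, and 22 members, these 9 and a further 13, were higher in it than in eGFP 3 and 6, against 38.1% of all genes. Of the 13, those among the mevalonate and sterol genes were Acat2 at 54.5 CPM, Mvd at 60.0 CPM, Idi1 at 125 CPM, Fdps at 289.9 CPM, Fdft1 at 46.0 CPM, Sqle at 95.2 CPM and Nsdhl at 31.6 CPM. The others were Insig1 at 21.3 CPM, Stard4 at 61.7 CPM, Acly at 472 CPM, Acaca at 14.6 CPM, Fasn at 569 CPM and Scd2 at 482 CPM. The CD8 T cell markers of that library summed to 217 CPM, and the part of its cells in these values was not tested.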

How the results depend on the processing

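No paired analysis was possible because the replicate numbers run from 1 to 10 across the groups and no number is shared. DESeq2 tested 21694 genes in each comparison. It called 97 higher and 34 lower in NFAT5 against eGFP and 83 and 17 in CA-RIT NFAT1 against eGFP. In CA-RIT NFAT1 against NFAT5 it called 1 and 3, and 0 members were called in any of these. With all 10 libraries the members' median was 0.74 in CA-RIT NFAT1 against eGFP and 0.32 in CA-RIT NFAT1 against NFAT5. Leaving out 1 library at a time gave 0 to 2471 genes higher, 0 to 823 lower, 0 to 12 members higher, 0 to 4 members lower and a median of 0.17 to 1.02 in NFAT5 against eGFP. For CA-RIT NFAT1 against eGFP the ranges were 0 to 2550, 0 to 860, 0 to 10, 0 to 3 and 0.19 to 1.07. In CA-RIT NFAT1 against NFAT5 all counts were 0 and the median ran from -0.03 to 0.08. Every call came without eGFP 6, where eGFP 3 stands for the group. The lowest medians against eGFP came without eGFP 3.

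Of the refits of 36 named values under the other settings, 311 kept the direction and side of the threshold and 12 turned the direction. With all 10 libraries these were, in CA-RIT NFAT1 against eGFP, Insig1 (0.28) and, in CA-RIT NFAT1 against NFAT5, Fads1 (0.44), Hmgcs1 (0.80), Insig1 (0.14), Scd2 (0.34) and Srebf2 (-0.00396). Upper-quartile scaling gave -0.021 for Srebf1 in CA-RIT NFAT1 against eGFP and -0.000827 for Sqle in CA-RIT NFAT1 against NFAT5. In the last comparison voom gave 0.13 for Hmgcs1, -0.076 for Sqle and 0.040 for Srebf1, and the length offset gave 0.093 for Srebf1. The cause was not tested.

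Leaving out 1 library turned the direction in 24 refits, kept it in 247 and brought 17 past the threshold, all without eGFP 6. The ranges were -0.45 to 1.00 for Insig1, -1.25 to 0.21 for Lss and -0.49 to 1.08 for Srebf1 in NFAT5 against eGFP. In CA-RIT NFAT1 against eGFP they were -0.95 to 0.50 for Insig1, -1.64 to 0.22 for Msmo1, -0.87 to 0.13 for Sc5d and -0.56 to 1.02 for Srebf1. Between the vectors, CA-RIT NFAT1 over NFAT5, they were -0.050 to 0.79 for Fasn, -0.047 to 0.38 for Fdps, -0.45 to 0.088 for Hmgcs1, -0.59 to 0.19 for Scd2, -0.22 to 0.11 for Sqle, -0.16 to 0.091 for Srebf1 and -0.043 to 0.40 for Srebf2. The stricter filter kept 26 of the 30 members. Fads2, Scd1, Elovl6 and Tm7sf2 had the lowest mean CPM over the 7 libraries other than eGFP 3, so counting error weighs most on them. Elovl6 and Fads2 had 0 reads in eGFP 3. The parts of depth and of spread between libraries in their standard errors were not tested.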
